A study of Homo sapiens with 12 samples.

Results

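Paclitaxel was compared with its solvent in GLI2 KO cells across all expressed genes. The comparison rested on 6 of the 12 libraries of the series, 3 from GLI2 KO cells in DMSO and 3 from GLI2 KO cells in 50 nM paclitaxel, each after 2 days of treatment. The members were taken from the genotype and treatment in the sample titles, and 21974 of 25049 deposited genes were expressed highly enough to be tested. The cells were MDA-MB-231b, a bone-tropic derivative of the human triple-negative breast cancer line MDA-MB-231 that had been recovered from the bone marrow of athymic nude mice after intratibial and then intracardiac injection. Cells labelled GLI2 KO had been transduced with lentiviral CRISPR-Cas9 reagents and a guide against GLI2, and cells labelled WT with a guide without a target, so WT cells here are also transduced cells. The labels do not say whether the knockout cells are a clone or a pool. The 6 WT libraries (3 in DMSO and 3 in 50 nM paclitaxel) entered only to ask where the response of GLI2 KO cells differed. Nothing in the labels says that replicates came from separate cultures, so p-values measure the spread between these libraries, which may be technical.

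Paclitaxel is a taxane. It binds beta-tubulin inside the microtubule, keeps microtubules from shortening, and so disturbs the mitotic spindle, and cells that fail to divide can leave mitosis with abnormal nuclei or die. GLI2 is a zinc-finger transcription factor at the end of the Hedgehog pathway, and in bone-metastatic breast cancer cells it is known as an activator of PTHLH, the gene of parathyroid hormone-related protein, which drives bone resorption by osteoclasts. In these bulk samples fewer cells of a kind and less RNA per cell cannot be told apart, total RNA per cell was not measured, and a change is therefore a shift against the rest of the library.

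The 6 libraries held between 83648473 and 103563345 counts, so 3 counts in a library correspond to 0.0290 to 0.0359 CPM, the usual scaling of counts to a library of fixed total. Libraries in DMSO detected 23948 to 24125 genes and those in paclitaxel 24929 to 24985, and mitochondrially encoded genes took 4.02% to 4.49% and 4.92% to 5.33% of counts. Replicates 3 of both treatments, which are libraries 11 and 12, stood apart from the others of their groups. Their chi-square per degree of freedom was 13.7 and 17.9 in DMSO and 11.7 and 7.17 in paclitaxel, against 3.70 and 4.22 between replicates 1 and 2. Without both libraries, 6657 genes were higher and 6826 lower in paclitaxel, and 89.4% of the calls made with them were made again.

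The targeted gene remained transcribed. GLI2 (ENSG00000074047, chromosome 2, 120735623 to 120992653, plus strand, GRCh38) held 9.28, 8.23 and 10.1 CPM in the GLI2 KO DMSO libraries and 3.97, 4.14 and 4.39 CPM in the GLI2 KO paclitaxel libraries. The groups did not overlap, and GLI2 fell by 1.14 on the log2 scale (± 0.09, standard error; edgeR adjusted p = 3.94e-11). In WT cells it stood at 10.4, 11.4 and 10.6 CPM in DMSO, above all 3 GLI2 KO DMSO libraries. An edited gene can still be transcribed, so this level does not measure the edit. Levels here and below are CPM scaled with TMM factors, which correct library sizes for a few dominant genes, and genes passed at an adjusted p below 0.05.

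Paclitaxel changed 14327 genes in GLI2 KO cells, 65.2% of those tested, with 7250 (33%) higher and 7077 (32.2%) lower. The sizes were uneven: 3526 genes (16%) rose at least 2-fold, and 180 (0.819%) fell at least 2-fold. Requiring a change beyond 1.5-fold left 3211 higher (14.6%) and 488 lower (2.22%). The replicates of the groups did not overlap for 14760 genes (67.2%). The split into higher and lower depended on how libraries were scaled. Higher genes made up 50.6% of calls with TMM factors, 66.1% with upper-quartile factors (9324 higher, 4791 lower) and 73.1% with library totals (10398 higher, 3831 lower). Those scalings shifted all changes by a median of 0.12 and 0.18 on the log2 scale, and changes below that size need to be read against it.

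Rises were carried by weakly expressed genes and falls by abundant ones. By mean level in GLI2 KO cells, 689 of 1422 genes below 0.1 CPM rose and 16 fell, and 3084 of 6798 genes between 0.1 and 1 CPM rose and 340 fell. Between 10 and 100 CPM 1478 of 7266 genes rose and 4125 fell, and at 100 CPM and above 267 of 2419 rose and 1685 fell. The median change went from 1.32 in the lowest class through 0.56, 0.13 and -0.14 to -0.19 in the highest. A gene that is nearly silent in DMSO can pass the filter on low counts only through its paclitaxel libraries and then had to rise, so the lowest classes are weighted towards rises by construction. Long intergenic noncoding RNAs had 883 rises and 130 falls among 1745 genes (median 0.58), antisense RNAs 834 and 138 among 1936 (median 0.41), and protein-coding genes 4144 and 6365 among 14188 (median -0.07). Rises made up 50.6%, 43.1% and 29.2% of these classes. Of all genes, 45.4% rose between 0.1 and 1 CPM and 20.3% between 10 and 100 CPM. The classes were not matched for level. The counting strand is not stated, so reads of an antisense gene and of its partner cannot be told apart.

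**Figure D1:**
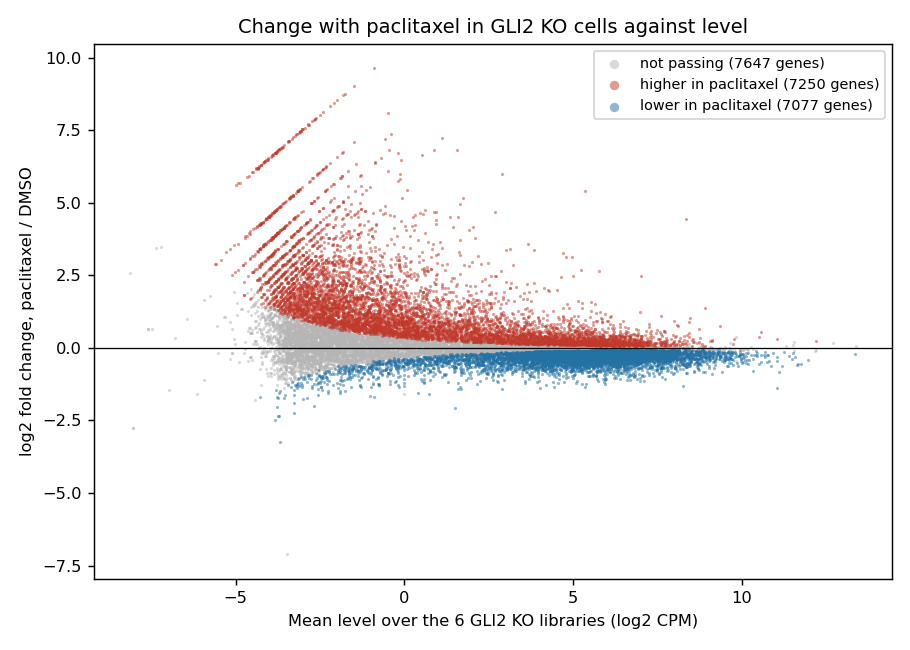
Change with paclitaxel (log2 fold change, vertical axis) of each tested gene against its mean level over the 6 GLI2 KO libraries (log2 CPM, horizontal axis), with the 7250 higher genes in red, the 7077 lower genes in blue and the rest in grey. Red points spread upward at low levels, where diagonal lines are genes with the same few DMSO counts, and blue points lie just under 0 at high levels; 3 genes at 0 counts in these libraries are not drawn.

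Among the 8 largest gains in CPM, EGR1, a growth-factor-induced transcription factor, had the largest fold change (chromosome 5, 138465490 to 138469315, plus strand). EGR1 held 31.7, 37.6 and 18.9 CPM in DMSO and 521, 606 and 763 CPM in paclitaxel. The libraries were far apart, and the rise was 4.42 ± 0.26 on the log2 scale (edgeR adjusted p = 4.65e-07). Replicate 3 was the lowest of the DMSO libraries and the highest of the paclitaxel libraries. The autophagy receptor gene SQSTM1, 22% of whose exon bases overlap another gene, rose by 0.74 ± 0.06 and ERRFI1, an inhibitor of EGFR, by 0.89 ± 0.08. Among the most abundant transcripts the mitochondrial MT-ND5 (0.54 ± 0.14), MT-CYB (0.32 ± 0.06) and MT-RNR2 (0.23 ± 0.07) and the ferritin gene FTH1 (0.36 ± 0.05, 62.4% of exon bases overlapping) gained, and MT-RNR2 lost its call without libraries 11 and 12 (0.26, adjusted p = 0.0701).

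By fold change the leading gene above 5 CPM was DNAH3, which encodes a heavy chain of the dyneins that move cilia. DNAH3 read 0.269, 0.181 and 0.256 CPM in DMSO and 12.2, 14.8 and 17.4 CPM in paclitaxel (5.97 ± 0.16). DHRS2, a short-chain dehydrogenase gene on chromosome 14 (23630115 to 23645639, plus strand), went from 2.31, 1.81 and 1.66 to 69.6, 78.7 and 92.7 CPM (5.39 ± 0.16). TXNIP, an arrestin-domain inhibitor of thioredoxin and of glucose uptake, went from 39.5, 39.1 and 40.0 to 195, 212 and 248 CPM (2.46 ± 0.09), and its relative ARRDC4 rose by 3.37 ± 0.13. Further large rises were SPX (4.52 ± 0.15), the complement protease C1S (4.18 ± 0.15), CPNE7 (4.07 ± 0.12), ARL14 (3.79 ± 0.13), CHILL1 (3.42 ± 0.14), the TNF family ligand TNFSF15 (3.36 ± 0.10), the lipoxygenase ALOXE3 (3.31 ± 0.17) and DUSP2, a phosphatase of MAP kinases (3.16 ± 0.14). The edgeR adjusted p-values of all these rises were at most 2.84e-09, and the replicates did not overlap for any of them.

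The largest loss in CPM was that of FASN. FASN, the fatty acid synthase gene (chromosome 17, 82078333 to 82098332, minus strand), held 2915, 2826 and 3517 CPM in DMSO and 1252, 1147 and 1178 CPM in paclitaxel (-1.37 ± 0.08). SCD, the desaturase that acts after it, fell by 0.83 on the log2 scale (± 0.07). The actin genes ACTG1 (-0.59 ± 0.03) and ACTB (-0.57 ± 0.03), vimentin (VIM, -0.61 ± 0.04), the chaperone HSPA8 (-0.56 ± 0.13), GAPDH (-0.42 ± 0.04) and the elongation factor EEF1A1 (-0.23 ± 0.05) were the others of the 8 largest losses. EEF1A1 did not pass with library totals (-0.05, adjusted p = 0.306). The 15 steepest falls by fold change also held genes outside the cell cycle lists described below: the noncoding RNA MANCR (-1.26 ± 0.04), the transporter SLCO4C1 (-1.27 ± 0.10), the laminin chain LAMA3 (-1.23 ± 0.04), RAC3 (-1.20 ± 0.06), the luminal transcription factor SPDEF (-1.16 ± 0.19) and PAQR4 (-1.36 ± 0.06, 41.5% of exon bases overlapping). TCF19 (-1.24 ± 0.03), WDR76 (-1.23 ± 0.04) and FAM111B (-1.19 ± 0.04), genes of dividing cells, fell with them. Overlaps of 20.2% to 25.1% also make RRM2, RAD54L, FANCA, BAD, ICAM1, IL6, HSPE1, H1-10 and VIM less certain.

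**Figure D2:**
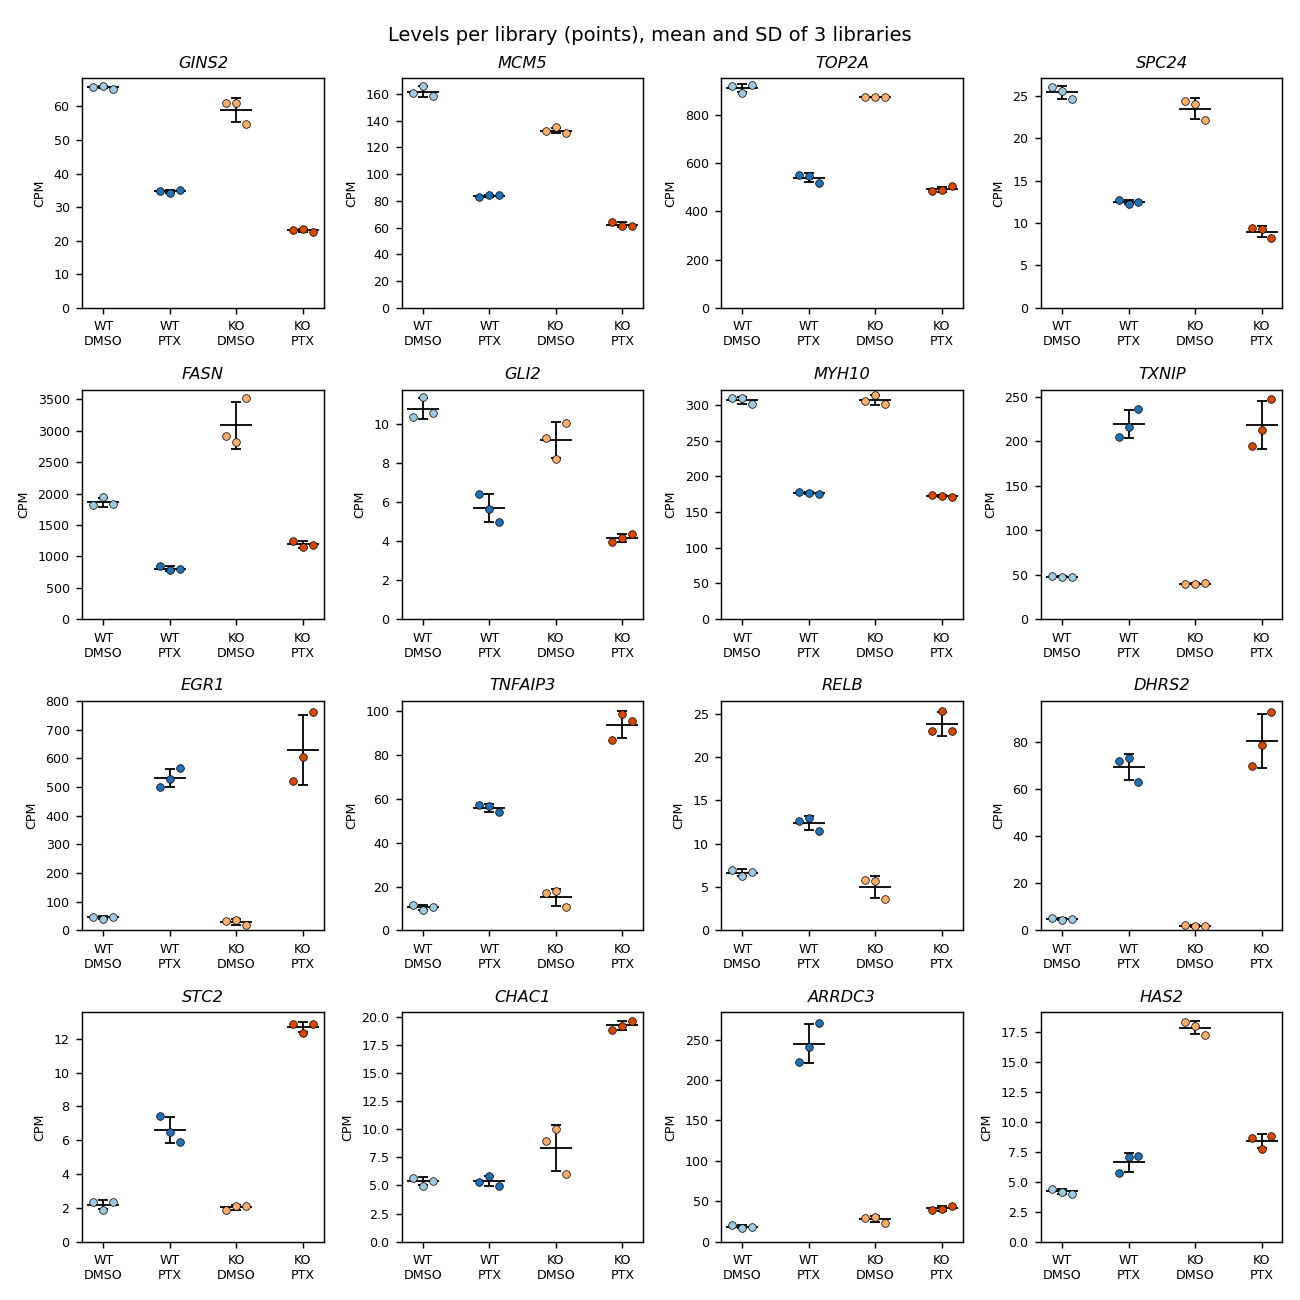
Levels of 16 genes (CPM, vertical axes, each starting at 0) in the 3 libraries of each group, with points for libraries and bars for the mean and SD. In GLI2 KO cells the replication and mitosis genes, FASN, MYH10 and GLI2 lie lower in every paclitaxel library than in every DMSO library, and EGR1, TNFAIP3, RELB, DHRS2 and STC2 lie higher.

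Gene groups were read from 59 lists, described by how many members passed in each direction against 33% higher and 32.2% lower over all genes, whose median change was 0.02. Most lists hold protein-coding genes of higher level, and of 11820 such genes with at least 1 CPM 22.4% rose and 53.3% fell (median -0.13), so a list with a share of falls near that is no result about the list. Because upper-quartile factors and library totals raise all changes, counts with library totals are given where they alter a list's balance. Among lists with at least 10 tested genes, those of DNA replication and repair lay furthest below that median, and histone, chemokine and immediate early lists furthest above it.

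**Figure D3:**
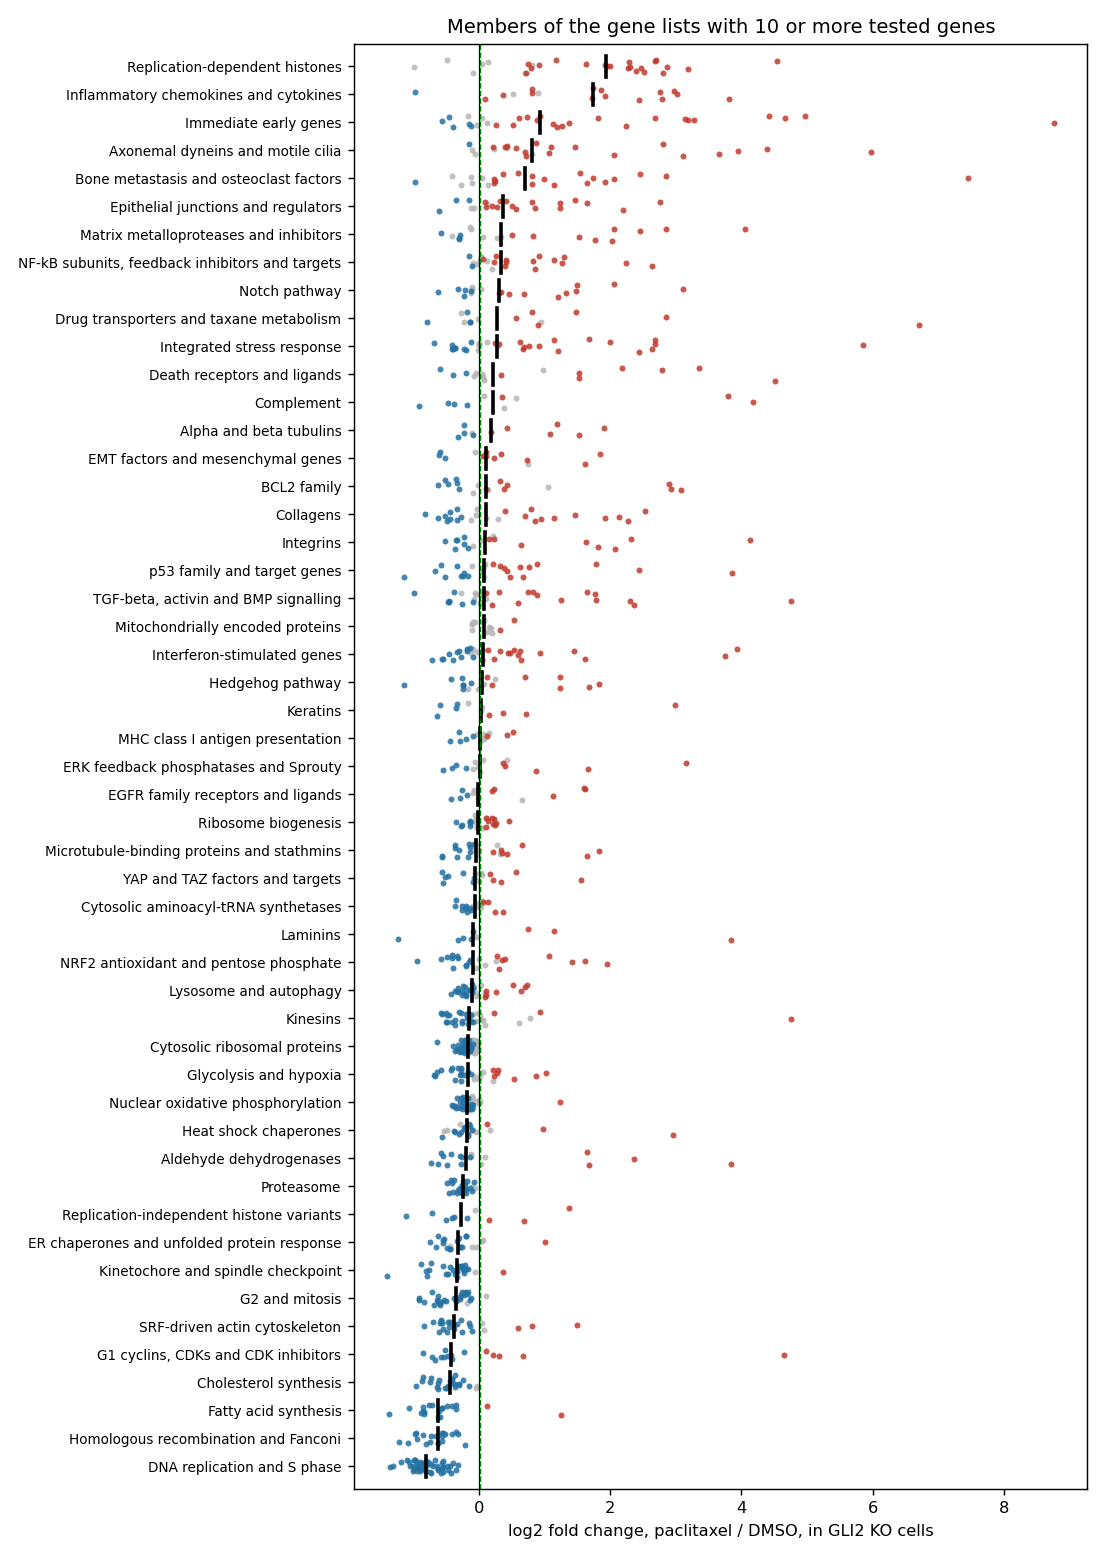
Change with paclitaxel in GLI2 KO cells (log2 fold change, horizontal axis) of the members of 51 lists with at least 10 tested genes, ordered by median. Points are genes (red higher, blue lower, grey not passing), black bars are list medians and the dashed line is the median of all genes at 0.02; DNA replication lies at the bottom with a median of -0.81 and replication-dependent histones at the top with 1.94.

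Every one of the 50 DNA replication and S-phase genes fell, with a median of -0.81 and a range from -1.35 to -0.31, under each scaling tried. These genes load the helicase, copy the DNA and make its nucleotides. Their summed level was 6456 to 6835 CPM in DMSO and 3822 to 3926 CPM in paclitaxel. GINS2, a subunit of the replicative helicase, held 61.1, 60.9 and 54.7 CPM in DMSO and 23.2, 23.3 and 22.6 CPM in paclitaxel (-1.35 ± 0.04, edgeR adjusted p = 8.71e-19). RRM2, a subunit of ribonucleotide reductase, fell by 1.31 ± 0.03, the chromatin assembly gene CHAF1B by 1.19 ± 0.04 and the helicase gene MCM5 by 1.09 ± 0.03 on the log2 scale. All 21 homologous recombination and Fanconi genes fell too, with a median of -0.63, among them RAD54L (-1.21 ± 0.06), BRIP1 (-1.07 ± 0.04), RMI2 (-0.97 ± 0.06) and FANCA (-0.95 ± 0.03).

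Mitotic genes had smaller median falls. Of 30 G2 and mitosis genes 28 fell (median -0.35) and 2 missed the threshold, and of 29 kinetochore and checkpoint genes 27 fell, 1 rose and 1 did not pass (median -0.33). With library totals 20 of the 30 and 17 of the 29 still fell. TOP2A, the topoisomerase that untangles sister chromatids, held 875, 876 and 876 CPM in DMSO and 484, 491 and 504 CPM in paclitaxel (-0.83 ± 0.03). CDCA3 (-0.91 ± 0.05) and the S-phase and mitosis regulator MYBL2 (-0.91 ± 0.03) fell alike, and the proliferation marker MKI67 fell by 0.53 ± 0.03. SPC24, a subunit of the NDC80 complex that holds microtubules at the kinetochore, went from 24.4, 24.1 and 22.2 to 9.47, 9.25 and 8.24 CPM (-1.39 ± 0.05), more than its partner SPC25 (-0.88 ± 0.05), CENPM (-0.80 ± 0.05) or DSN1 (-0.79 ± 0.04). In the list of G1 regulators 10 of 15 fell, among them CDK2 (-0.85 ± 0.04) and RBL1 (-0.72 ± 0.04), and 5 rose. The CDK inhibitor CDKN1A rose by 0.68 ± 0.07, and CCND2, a D-type cyclin, from 0.0513, 0.0794 and 0.0222 to 1.06, 1.29 and 1.53 CPM (4.65 ± 0.27).

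Promoters are shown for cell cycle genes because these fell as a group. They run from 250 bases before to 50 bases after the RefSeq start (GRCh38.p14), and 13024 of the tested genes (59.3%) had one. An E2F site, taken as TTTCCCGC, TTTGGCGC or TTTCGCGC on either strand, was in 22 of 41 promoters of the replication list (53.7%) and in 4.19% of all 13024. It was in 3 of 17 promoters of the recombination list (17.6%). The cell cycle homology region TTTGAA was in 15 of 24 promoters of the G2 and mitosis list (62.5%) and 13 of 24 of the kinetochore list (54.2%), against 10.5% of all. The CCAAT box was in 20 (83.3%) and 16 (66.7%) of these, against 36.1% of all. Stretches of 120 bases read 5′ to 3′ on the gene's strand, with the site in capitals on either strand, for GINS2 (E2F site, chr16:85688955-85689074, minus strand), TOP2A (TTTGAA, chr17:40417978-40418097, minus strand) and SPC24 (CCAAT box, chr19:11155787-11155906, minus strand).
GINS2: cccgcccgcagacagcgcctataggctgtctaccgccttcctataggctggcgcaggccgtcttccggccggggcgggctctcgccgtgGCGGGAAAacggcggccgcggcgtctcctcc
TOP2A: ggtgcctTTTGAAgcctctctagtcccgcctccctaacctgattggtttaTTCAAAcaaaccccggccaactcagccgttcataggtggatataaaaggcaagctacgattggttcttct
SPC24: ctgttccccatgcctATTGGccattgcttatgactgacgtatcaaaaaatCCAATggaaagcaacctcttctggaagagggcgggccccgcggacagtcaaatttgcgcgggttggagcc
Over all tested genes with an E2F site in this window, 304 of 546 fell (55.7%) and 111 rose (20.3%), with a median of -0.17. All genes with a promoter had 41.7%, 31% and -0.05. Protein-coding genes of at least 1 CPM had 53.3% lower, 22.4% higher and a median of -0.13, close to the E2F set. The 546 also include the 22 genes of the replication list, which all fell. For TTTGAA the values were 37.5% lower and 36.5% higher, and for the CCAAT box 44.4% and 29.5%. A match is a description of letters, not evidence of binding.

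Histone genes went the other way. Replication-dependent histone transcripts usually end in a stem-loop without a poly(A) tail, and the RNA here was polyadenylated, so these values count the minority of transcripts that carry a tail. Of 28 tested genes 21 rose and 7 did not pass, with a median of 1.94, and their summed level went from 38.4 to 39.6 CPM in DMSO to 122 to 142 CPM in paclitaxel. H4C8 went from 0.602, 0.544 and 0.722 to 5.24, 5.73 and 6.15 CPM (3.19 ± 0.12), and H2BC21 from 0.513, 0.442 and 0.622 to 3.92, 3.79 and 3.83 CPM (2.87 ± 0.13). H3C10 (2.81 ± 0.22) and H2BC6 (2.69 ± 0.16, 28.2% of exon bases overlapping) were similar. Histone copies are near-identical and may exchange counts, so single members are uncertain. Among 10 variants made outside S phase 3 rose and 6 fell. The linker histone gene H1-10 rose by 0.69 ± 0.04, and H2AX, the variant phosphorylated at DNA breaks, fell from 148, 144 and 138 to 69.1, 65.2 and 63.9 CPM (-1.11 ± 0.04), with H2AZ2 (-0.71 ± 0.03).

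Alpha and beta tubulin genes had 6 rises and 4 falls among 11 tested, with 1 not passing (median 0.19), and 7 rises and 1 fall with library totals (median 0.37). The main beta-tubulin gene TUBB held 2446, 2410 and 2238 CPM in DMSO and 1984, 1909 and 1810 CPM in paclitaxel (-0.31 ± 0.04). TUBB3, the isotype often discussed in taxane resistance, held 1.58, 1.16 and 1.41 CPM and then 3.63, 2.63 and 3.16 CPM (1.19 ± 0.13), and 35.8% of its exon bases overlap another gene. TUBB2A rose by 1.08 ± 0.05 and TUBA1A by 0.44 ± 0.04. Microtubule-binding genes were mixed, with 7 rises and 11 falls of 25 (15 and 5 with library totals): MAP1A rose by 1.64 ± 0.08 and CLIP1 by 0.43 ± 0.03, while the microtubule-destabilising STMN1 (-0.56 ± 0.03) and the tau gene MAPT (-0.55 ± 0.14) fell. Kinesin motor genes had 24 falls and 3 rises of 36 with a median of -0.16, which turned to 0.02 with library totals (10 rises, 13 falls). KIF21B (-0.58 ± 0.07), KIFC3 (-0.55 ± 0.03) and the chromosome arm motor KIF22 (-0.50 ± 0.04) fell and KIF17 rose (0.93 ± 0.09). Genes of motile cilia, which also run on microtubules, had 17 rises and 1 fall of 23 (median 0.81). Most were weakly expressed, a class in which 45.4% of genes between 0.1 and 1 CPM rose. Beside DNAH3, DNAH17 (4.39 ± 0.19), DNAH10 (3.66 ± 0.15) and DNAH12 (2.81 ± 0.21) led.

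ABCB1, the drug efflux pump P-glycoprotein that exports taxanes, was counted 0, 1 and 3 times in the DMSO libraries and 162, 163 and 191 times in the paclitaxel libraries. The ratio over library totals was 127 (exact 95% interval 49.5 to 469, counting error only), and the level in paclitaxel was 1.79, 1.76 and 1.73 CPM. Of 14 transporter and taxane metabolism genes 6 rose, 4 fell and 4 did not pass (median 0.28). ABCC2, another efflux pump, rose by 0.82 ± 0.08 and the cytochrome CYP1B1 by 0.90 ± 0.07, and SLCO1B3, a taxane uptake carrier with 54.5% overlapping exon bases, fell by 0.79 ± 0.12. With upper-quartile factors or library totals the list had 7 rises and 1 fall.

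Lists of p53 targets and of cell death held changes in both directions. MDA-MB-231 is known to carry mutant p53. The list of 27 p53 family members and targets held 12 rises and 9 falls, with 6 not passing and a median of 0.09, and 17 rises and 6 falls with library totals. GDF15, a stress cytokine, went from 7.05, 7.85 and 8.32 to 43.6, 43.0 and 39.4 CPM (2.44 ± 0.07), BTG2 rose by 0.88 ± 0.13 and TP53INP1 by 0.76 ± 0.20. The p53 relative TP73 fell by 1.13 ± 0.10 and MDM2, the ubiquitin ligase of p53, by 0.28 ± 0.03. In the BCL2 family 7 of 17 rose and 6 fell (10 and 6 with library totals). BCL2L1, which opposes apoptosis, held 397, 401 and 396 CPM and then 321, 310 and 316 CPM (-0.34 ± 0.03, with 43% of exon bases overlapping). The killers BOK (-0.62 ± 0.05), BAX (-0.52 ± 0.07) and BAD (-0.47 ± 0.04) fell, and PMAIP1, which encodes NOXA, rose by 0.43 ± 0.04. MCL1, the survival gene that NOXA opposes, read 341, 351 and 288 CPM in DMSO and 355, 370 and 362 CPM in paclitaxel, which did not pass (0.15 ± 0.07, adjusted p = 0.0973), nor with RLE factors (0.16, 0.0772), while the upper quartile (0.27, 0.00523) and totals (0.33, 0.00217) gave a call. Of 16 death receptor genes and ligands 7 rose and 3 fell (11 and 2 with library totals), with TNFRSF1A down by 0.39 (± 0.04) and the caspase-8 inhibitor CFLAR up by 0.34 ± 0.04 on the log2 scale.

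Integrated stress response genes, which ATF4 and its partners switch on when translation initiation is held back, had 16 rises, 9 falls and 6 not passing of 31 (median 0.27). The rises included the transcription factors ATF3 and DDIT3. ATF3 went from 11.5, 12.2 and 6.98 to 63.3, 65.8 and 67.9 CPM (2.69 ± 0.17), and DDIT3, with 39.6% of exon bases overlapping, from 10.5, 10.4 and 6.94 to 36.4, 37.2 and 37.0 CPM (1.99 ± 0.14). STC2, a secreted glycoprotein, went from 1.88, 2.12 and 2.12 to 12.9, 12.4 and 12.8 CPM (2.63 ± 0.09). Replicate 3 was the lowest DMSO library for ATF3 and DDIT3. CHAC1, which breaks down glutathione, held 8.99, 10 and 6.03 CPM and then 18.8, 19.2 and 19.6 CPM (1.21 ± 0.14, adjusted p = 2.34e-05). The site TGATGNAA, on either strand, was in 5 of 26 promoters of this list (19.2%) against 1.91% of all, and is shown in capitals for ATF3 (chr1:212565166-212565285, plus strand), one of the largest rises among those that hold it.
ATF3: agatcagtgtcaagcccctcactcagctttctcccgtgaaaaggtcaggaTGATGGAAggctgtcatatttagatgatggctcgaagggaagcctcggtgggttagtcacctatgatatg

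Folding and degradation genes were also counted. Of 22 genes of endoplasmic reticulum (ER) chaperones and the unfolded protein response 16 fell and 1 rose (median -0.31), with the folding enzymes PDIA4 (-0.75 ± 0.06) and P4HB (-0.65 ± 0.03) lower. The single rise was ERN1, the stress sensor IRE1, from 19.9, 20.9 and 20.2 to 38.4, 41.0 and 43.9 CPM (1.01 ± 0.04). Of 22 heat shock genes 13 fell and 3 rose, a share of falls near that of coding genes, and with library totals 4 fell and 6 rose. HSP90AA1 fell by 0.37 ± 0.03 on the log2 scale, HSPE1 by 0.36 ± 0.09, and the small heat shock gene HSPB8 rose by 0.97 ± 0.08. Proteasome genes had 28 falls of 30 (median -0.25) but 12 falls and 2 rises with library totals, as in PSMC3 (-0.46 ± 0.04) and PSMD1 (-0.42 ± 0.03). HSPE1 did not pass with library totals (-0.18, adjusted p = 0.0527).

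Sterol and fatty acid synthesis fell broadly. Of 25 cholesterol genes 23 fell and 2 did not pass (median -0.44), and of 20 fatty acid genes 18 fell and 2 rose (median -0.61). FDPS (-0.86 ± 0.03), INSIG1 (-0.85 ± 0.07), MVD (-0.75 ± 0.05) and ACACA (-0.85 ± 0.04) fell together with SREBF1, the transcription factor of lipid synthesis (-1.06 ± 0.07). Replicate 3 was the highest DMSO library for FASN, SCD and SREBF1. Without libraries 11 and 12 the named lipid genes kept their calls.

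The remaining metabolic and translation lists had medians close in size to the scaling shift, and the shares of falls in the glycolysis, lysosome and aldehyde dehydrogenase lists were near that of coding genes. Cytosolic ribosomal protein genes had 50 falls, 0 rises and 26 not passing of 76 (median -0.16), led by RPL22 (-0.64 ± 0.04), but 17 rises and 9 falls with library totals (median 0.02). Nuclear oxidative phosphorylation genes had 27 falls and 1 rise of 37 (median -0.17), and 6 rises and 8 falls with library totals (median 0.002). Of 13 mitochondrially encoded proteins 2 rose and 11 did not pass, and 8 rose with library totals. Glycolysis and hypoxia genes had 16 falls and 7 rises of 29 (median -0.17, turning to 0.01 with library totals): the phosphofructokinases PFKP (-0.68 ± 0.04) and PFKL (-0.67 ± 0.04) fell and the hypoxia-induced NDRG1 rose by 1.03 ± 0.14. NRF2 target and pentose phosphate genes had 12 falls and 8 rises of 24 (median -0.09, but 0.09 with library totals), and the aldo-keto reductases AKR1C2 (1.95 ± 0.25), AKR1B10 (1.61 ± 0.21) and AKR1C1 (1.42 ± 0.12) rose. Lysosome and autophagy genes had 17 falls and 8 rises of 31 (median -0.10, but 0.08 with library totals). The members that rose most were autophagy genes: SQSTM1, GABARAPL1 (0.71 ± 0.05) and MAP1LC3B (0.52 ± 0.03), with TFEB, a transcription factor of lysosomal genes (0.65 ± 0.13). Of 18 aldehyde dehydrogenase genes 10 fell and 4 rose (8 and 6 with library totals), and of 26 ribosome biogenesis genes 9 rose and 7 fell (17 and 2), with RRP12 up by 0.46 ± 0.03.

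Inflammatory genes rose at mostly low levels. Chemokines and cytokines had 14 rises and 1 fall among 17 genes (median 1.74). CXCL8, a neutrophil chemokine, went from 2.81, 3.22 and 1.47 to 10.9, 11.9 and 5.63 CPM (1.92 ± 0.44), with replicate 3 lowest in both groups, and IL6 from 0.961, 0.975 and 0.733 to 2.94, 3.09 and 2.85 CPM (1.74 ± 0.15). IL24 (3.01 ± 0.46) and CCL26 (1.86 ± 0.16) rose. The summed level of the list was 306 to 328 CPM in DMSO and 250 to 281 CPM in paclitaxel, since it was dominated by the 1 member that fell, IL11, named here after its values were seen. Of 22 NF-kB subunits, feedback inhibitors and targets 14 rose, 2 fell and 6 did not pass (median 0.33). TNFAIP3, which encodes the NF-kB inhibitor A20, went from 17, 17.8 and 10.7 to 87.0, 98.9 and 95.7 CPM (2.64 ± 0.16), and RELB, a subunit of the alternative pathway, from 5.83, 5.66 and 3.59 to 23.0, 25.4 and 23.0 CPM (2.25 ± 0.14). NFKBIE (1.27 ± 0.07) and ICAM1 (1.30 ± 0.08) followed. Of 31 interferon-stimulated genes 14 rose and 12 fell (median 0.07), with IFI44 at -0.71 ± 0.05 and ISG20 at 0.93 ± 0.16. With library totals 16 rose and 5 fell.

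Immediate early genes, which signals switch on without new protein synthesis, had 20 rises, 5 falls and 4 not passing of 29 (median 0.94). EGR2 went from 0.128, 0.181 and 0.267 to 4.83, 5.98 and 7.55 CPM (4.97 ± 0.21), EGR3 from 0.192, 0.215 and 0.0333 to 3.40, 3.81 and 3.90 CPM (4.67 ± 0.28), and ARC from 4.95, 5.57 and 4.23 to 40.9, 49.8 and 51.8 CPM (3.27 ± 0.11). MAP kinase phosphatase and Sprouty genes, which feed back on this signalling, had 5 rises and 4 falls of 15 (9 and 3 with library totals). The phosphatase gene DUSP8 rose by 1.67 ± 0.14, and DUSP4 fell by 0.54 ± 0.05. Genes of the actin cytoskeleton driven by SRF, a factor that also drives immediate early genes, had 20 falls and 3 rises of 25 (median -0.38). MYH10 fell from 306, 314 and 301 to 174, 172 and 171 CPM (-0.83 ± 0.03) and the tropomyosin TPM4 by 0.70 ± 0.03, while CNN1 (1.5 ± 0.13) and TAGLN (0.81 ± 0.05) rose. CArG boxes, the sites of SRF, were in 2 of 21 promoters of the immediate early list (9.52%) and 6 of 22 of the actin list (27.3%), against 1.14% of all. NF-kB sites were in 7 of 20 promoters of the NF-kB list (35%) and 5 of 12 of the chemokine list (41.7%), against 6.56%. Sequences follow for EGR1 (chr5:138465346-138465465, plus strand) and TPM4 (chr19:16067315-16067434, plus strand), which hold CArG boxes and moved in opposite directions, and for TNFAIP3 (NF-kB sites, chr6:137867139-137867258, plus strand), with the sites in capitals.
EGR1: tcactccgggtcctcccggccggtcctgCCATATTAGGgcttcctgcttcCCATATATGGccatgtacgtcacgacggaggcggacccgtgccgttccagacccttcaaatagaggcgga
TPM4: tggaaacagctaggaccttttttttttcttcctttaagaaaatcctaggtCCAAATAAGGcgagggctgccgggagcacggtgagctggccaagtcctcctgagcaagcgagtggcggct
TNFAIP3: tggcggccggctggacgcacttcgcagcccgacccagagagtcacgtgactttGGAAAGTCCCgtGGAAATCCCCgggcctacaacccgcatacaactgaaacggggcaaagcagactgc
Over all tested genes, 50 of 148 with a CArG box rose and 57 fell, and 281 of 854 with an NF-kB site rose and 331 fell, so neither set as a whole went one way.

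Hedgehog genes had 7 rises, 7 falls and 5 not passing of 19 (median 0.06), but 10 rises and 2 falls with library totals (median 0.23). The ligand SHH (1.23 ± 0.17) and the ligand-releasing SCUBE2 (1.23 ± 0.20) rose at levels near 1 CPM. PTCH1, receptor and target of the pathway, held 13.2, 13.2 and 14 CPM and then 13.4, 15 and 14.4 CPM, groups that overlapped (0.08 ± 0.06, adjusted p = 0.202, but 0.26 and adjusted p = 0.000423 with library totals). GLI1, the target gene most used to read the pathway, stood at 0.179, 0.249 and 0.300 CPM and then 0.355, 0.431 and 0.408 CPM (0.70 ± 0.28, adjusted p = 0.0295). That call was lost in DESeq2 (0.71, adjusted p = 0.0575), without GLI2 KO DMSO replicate 1 (0.53, adjusted p = 0.130) or 2 (0.71, 0.0573) and without paclitaxel replicate 2 (0.64, 0.0839) or 3 (0.68, 0.0682). Genes of bone metastasis and osteoclast control had 17 rises, 1 fall and 6 not passing of 24 (median 0.70). Their summed level did not rise with them, at 1507 to 1721 CPM in DMSO and 1590 to 1633 CPM in paclitaxel. The rises named here are of weak genes, and 45.4% of all genes between 0.1 and 1 CPM rose. PTHLH went from 0.692, 0.624 and 0.589 to 1.13, 1.19 and 1.44 CPM (0.99 ± 0.18), and the collagenases MMP13 (2.46 ± 0.21) and MMP1 (2.06 ± 0.18) rose from below 1.2 CPM.

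Of 30 TGF-beta, activin and BMP genes 14 rose, 7 fell and 9 did not pass (median 0.08), and 22 rose and 4 fell with library totals. The BMP-induced repressors ID2 (2.30 ± 0.10) and ID4 (1.76 ± 0.11) and the activin subunit INHBA (1.78 ± 0.07) rose, and INHBE, another inhibin subunit gene, went from 0.128, 0.159 and 0.0444 to 2.75, 3.21 and 3 CPM (4.75 ± 0.44). Of 19 Notch genes 10 rose and 5 fell (median 0.30), among them the targets HEY1 (1.5 ± 0.09) and HEY2 (1.33 ± 0.20) and the ligand DLL4 (1.48 ± 0.14). HES1, read at 3.23, 3.13 and 6.90 CPM in DMSO and 10.4, 10.1 and 10.5 CPM in paclitaxel, rose by 1.21 ± 0.25, with replicate 3 high in DMSO. Among 13 EGFR family genes 5 rose and 4 fell (5 and 2 with library totals): the ligand AREG rose by 1.62 ± 0.08, and the receptor EGFR fell by 0.28 ± 0.03 and the ligand NRG1 by 0.43 ± 0.04. Of 17 YAP and TAZ genes 5 rose and 7 fell, a balance that turned to 11 and 4 with library totals, with NUAK2 up by 1.55 ± 0.07 and CCN1 down from 1793, 1854 and 1581 to 1198, 1178 and 1183 CPM (-0.55 ± 0.04).

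Adhesion and matrix genes changed member by member. Of 22 epithelial junction genes 16 rose, 3 fell and 3 did not pass (median 0.37), led by MARVELD2 (2.75 ± 0.21), the transcription factor GRHL1 (1.24 ± 0.10) and the protease ST14 (1.25 ± 0.13). E-cadherin (CDH1) stayed low, at 0.205, 0.181 and 0.544 CPM in DMSO and 0.598, 0.690 and 1.29 CPM in paclitaxel, and rose by 1.46 ± 0.35 (adjusted p = 0.00153), with replicate 3 highest in both groups. Mesenchymal genes also rose in 8 of 13 cases and fell in 3: SNAI1, a repressor of CDH1, went from 2.19, 2.71 and 2.60 to 8.01, 10.3 and 8.73 CPM (1.84 ± 0.10), N-cadherin (CDH2) rose by 1.62 ± 0.15, and VIM, fell. Collagens had 11 rises and 9 falls of 25, with COL16A1 (2.13 ± 0.10) and COL11A2 (2.28 ± 0.15) higher, and laminins 3 and 5 of 11 (4 and 2 with library totals). Of 19 metalloprotease genes 9 rose and 4 fell, as in MMP25 (4.05 ± 0.21, 35.2% of exon bases overlapping). PLAU, the urokinase gene (31.1% of exon bases overlapping), fell from 267, 258 and 269 to 141, 132 and 126 CPM (-0.99 ± 0.04), while its inhibitor SERPINE2 rose by 0.79 ± 0.04.

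The 9 markers of a mesenchymal triple-negative line summed to 7019 to 7477 CPM in DMSO and 5487 to 5817 CPM in paclitaxel, and the 11 luminal markers to 150 to 187 CPM and 121 to 127 CPM. VIM (1735 to 2939 CPM), AXL (844 to 1232 CPM) and EGFR (589 to 737 CPM) were high. S100A4, with 1756 counts over the DMSO libraries, and PLAUR, with 9835, were low members of the first list, below ERBB2 of the luminal list with 14389. Markers of other cells were also read, and several rose at low levels. Of 8 listed haematopoietic markers 5 were tested and 4 rose, with a summed level of 0.718 to 1.03 CPM in DMSO and 2.26 to 2.85 CPM in paclitaxel. Of 8 stromal markers 4 were tested and all 4 rose, from a sum of 14.8 to 20.1 CPM to 28.6 to 31.9 CPM, most of it COL1A1 (0.79 ± 0.08) and PDGFRB (0.81 ± 0.14). Of 5 endothelial markers 4 were tested and 4 rose, from 1.17 to 1.53 CPM to 2.89 to 3.10 CPM. Some of these markers, such as SPI1 (5 summed counts) and PDGFRA (9), were too low in DMSO to pass the low-count filter there. Of all genes, 48.5% below 0.1 CPM and 45.4% between 0.1 and 1 CPM rose, so rises of such weak markers say little. COL1A1 and PDGFRB lay above 1 CPM and are not covered by these shares. COL1A1 had 1658 counts summed over the DMSO libraries and 3287 over the paclitaxel libraries, and PDGFRB 2588 and 5211. CD68, BGLAP and CDH5 were too low to test, with at most 35 counts summed over the paclitaxel libraries. Of 5 markers of kidney-derived packaging cells, which make lentivirus, 1 was tested: PAX8 had 606 counts in DMSO and 689 in paclitaxel and did not pass (-0.01), and NEFM had 1 and 9 counts. Listed markers that are neither tested nor named as too low, such as ESR1, CD3E and DCN, were not analysed here. Luminal markers had 3 rises and 5 falls of 11, with PGR down from 2.18, 2.29 and 2.98 to 0.953, 0.841 and 0.716 CPM (-1.58 ± 0.17) and AGR2 by 0.95 ± 0.12 on the log2 scale. The part of such markers in the rises of weakly expressed genes was not tested.

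A set of 717 genes had at most 3 counts in all DMSO libraries together and at least 20 in the paclitaxel libraries, 184 of them with 0 counts in DMSO, and 4 genes showed the reverse. CEACAM20 had 2 counts in DMSO and 125, 135 and 190 counts in paclitaxel, a ratio of 222 (exact 95% interval 61.2 to 1840). The calcium buffer gene CALB1 went from 2 to 403 counts (199, interval 54.7 to 1650), RFTN2 from 3 to 360 (119, interval 40.2 to 577) and LGR6, an R-spondin receptor, from 3 to 236 (77.7, interval 26.3 to 379). The noncoding RNAs CCDC13-AS2 (1 and 419 counts) and SCAT8 (3 and 234) were similar. Each reached less than 2 CPM in any library, and intervals cover counting error only. These genes were picked for this contrast, so the counts describe them and test nothing.

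The response of GLI2 KO cells was set beside that of WT cells, in which 66.7% of genes changed, 34.6% higher and 32.1% lower (18% and 0.587% at least 2-fold). Changes across 21974 genes had a Pearson correlation of 0.871 between genotypes, which share no libraries, with a slope of 0.831 of GLI2 KO on WT changes. For 13754 genes with at least 1 CPM in GLI2 KO cells the values were 0.898 and 0.863. Scatter in the WT changes pulls such a slope below 1, so it does not measure a weaker response. Genes are not independent replicates, and no p is given. Of the genes called in GLI2 KO cells 82.9% were also called in WT cells, and the shared calls were 81.0% of the WT calls. The difference of the responses, tested as an interaction, passed for 2963 genes (13.5%), with 1441 (6.56%) higher and 1522 (6.93%) lower in GLI2 KO cells, and exceeded 2-fold for 104 (0.473%) and 203 (0.924%). Among GLI2 KO calls, 668 rises were larger and 359 smaller than in WT cells, and 817 falls were deeper and 429 shallower. Choosing genes by their call in GLI2 KO cells favours larger changes there, so this imbalance cannot show a stronger response. In 155 genes the calls had opposite signs.

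**Figure D4:**
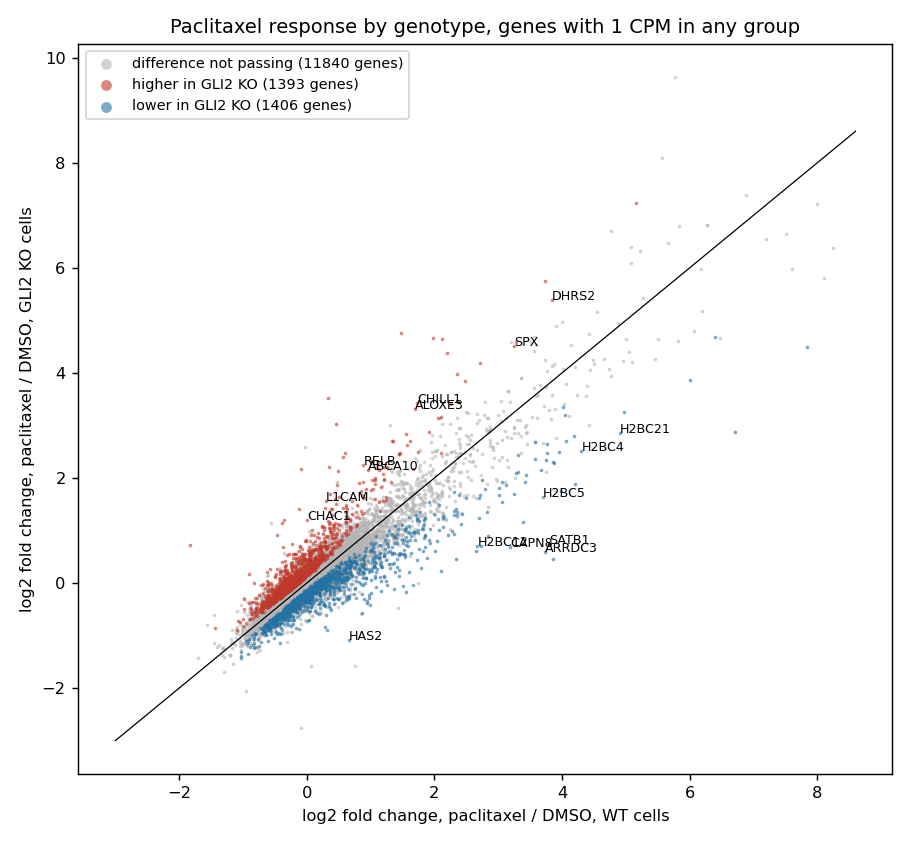
Log2 fold change with paclitaxel in GLI2 KO cells (vertical axis) against WT cells (horizontal axis) for 14639 genes with at least 1 CPM in any group. Genes with a larger response value in GLI2 KO cells are red (1393), with a smaller one blue (1406), the line marks equal responses, and the 16 named differences are labelled.

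Replication genes fell further in GLI2 KO than in WT cells: the difference passed for 30 of 50, all lower, with a median change of -0.81 against -0.60 in WT cells. GINS2 differed by -0.43 ± 0.05 (edgeR adjusted p = 1.1e-05), starting from 66.0, 66.1 and 65.3 CPM in WT DMSO libraries and ending at 34.8, 34.2 and 35.0 CPM, and TCF19, FAM111B and WDR76, outside the list, differed by -0.42 ± 0.05, -0.44 ± 0.05 and -0.43 ± 0.06. For the mitotic list 3 differences were higher and 2 lower of 30, and for MKI67 the difference was 0.01 ± 0.05. Polyadenylated histone transcripts rose less: 13 of 28 differences passed, all lower, with a median change of 1.94 against 2.78. H2BC21 ended at 3.92, 3.79 and 3.83 CPM in GLI2 KO and at 15.2, 15.3 and 17.6 CPM in WT cells (difference -2.04 ± 0.20), and H2BC12 went from 15.6, 15.5 and 14.1 to 24.3, 24.4 and 25.3 CPM in GLI2 KO but from 9.23, 8.93 and 8.93 to 54.3, 48.8 and 69.5 CPM in WT cells (-1.96 ± 0.17).

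The integrated stress response list differed the other way. Its difference was higher for 18 of 31 genes and lower for 2, and its median change was 0.27 in GLI2 KO and -0.26 in WT cells. CHAC1 did not pass in WT cells (0.00 ± 0.16), where it read 5.68, 4.97 and 5.41 CPM and then 5.34, 5.86 and 4.96 CPM, and the difference was 1.20 ± 0.22 (adjusted p = 0.00521). STC2 differed by 1.06 ± 0.14 and DDIT3 by 0.92 ± 0.19, while GDF15 rose less in GLI2 KO cells (-0.87 ± 0.11). Cytosolic aminoacyl-tRNA synthetases, which charge tRNAs and which ATF4 can induce, had 4 rises and 9 falls of 20 in GLI2 KO cells (11 and 4 with library totals), yet 13 differences were higher and 0 lower. CARS1 went from 95, 91 and 83.6 to 114, 115 and 120 CPM in GLI2 KO cells (0.37 ± 0.04) and from 101, 91.8 and 96.0 to 83.5, 82.3 and 78.3 CPM in WT cells (-0.24 ± 0.04), a difference of 0.62 ± 0.06. Replicate 3 was the lowest DMSO library for CARS1, CHAC1 and DDIT3 in GLI2 KO cells. Without libraries 11 and 12, 87.4% of all differences that passed were called again, and those of CHAC1 and RELB (1.19) were among them.

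**Figure D5:**
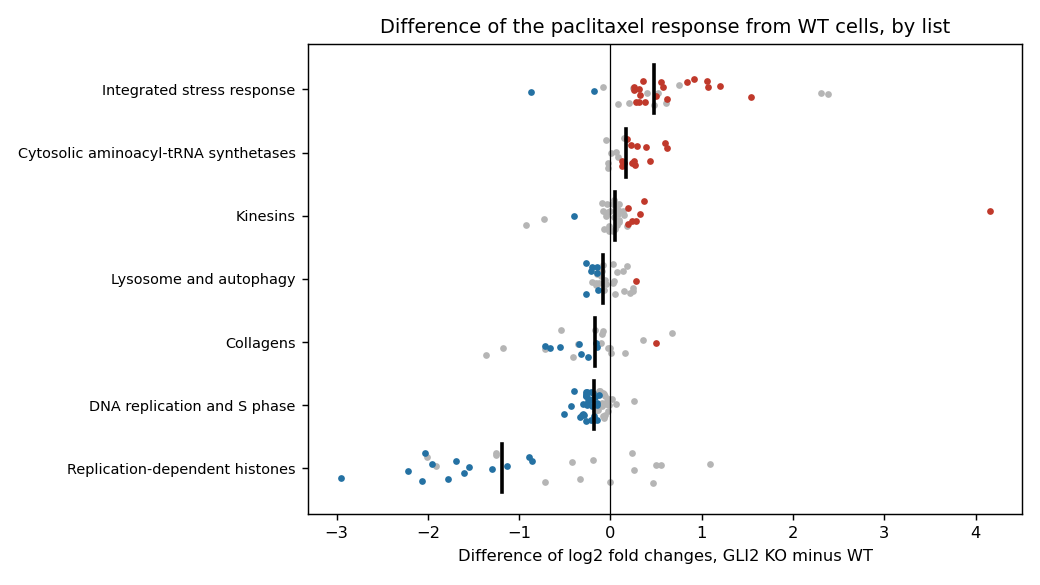
Difference of the log2 fold changes with paclitaxel, GLI2 KO minus WT (horizontal axis), for members of 7 lists chosen for the plot after their values were seen; red and blue points passed the test of the difference, grey points did not, and black bars are medians. The histone list lies lowest and the integrated stress response list highest, with 18 of 31 genes higher.

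Single genes parted the genotypes more strongly. ARRDC3, an arrestin-like tumour suppressor candidate on chromosome 5 (91368724 to 91383359, minus strand), went from 29.1, 30.4 and 23.3 to 38.8, 40.4 and 44.6 CPM in GLI2 KO cells (0.58 ± 0.12), but from 20.1, 16.5 and 18.4 to 222, 241 and 271 CPM in WT cells (3.73 ± 0.13). The difference was -3.15 ± 0.17 (adjusted p = 1.57e-05), while its relatives TXNIP and ARRDC4 differed by 0.26 ± 0.12 and -0.35 ± 0.19, which did not pass. HAS2, which makes hyaluronan, fell in GLI2 KO cells from 18.3, 18 and 17.2 to 8.67, 7.69 and 8.80 CPM (-1.09 ± 0.07) and rose in WT cells from 4.43, 4.14 and 4 to 5.73, 7.03 and 7.11 CPM (0.66 ± 0.08). The treated groups thus lay closer to each other than the untreated ones. SATB1, a chromatin organiser, was much lower in WT cells at the start, at 0.0579, 0.0122 and 0.0226 CPM against 2.86, 3.14 and 3.20 CPM, and the responses were 3.80 ± 0.32 and 0.74 ± 0.10. WT DMSO replicates 2 and 3 lay below 3 counts (0.0348 and 0.0325 CPM), so the WT rise of SATB1 and its difference rest on few counts. RELB rose by 2.25 ± 0.14 in GLI2 KO and 0.89 ± 0.13 in WT cells (difference 1.36 ± 0.19), EGR3 by 4.67 ± 0.28 and 1.97 ± 0.24 (2.69 ± 0.42), and the cyclin CCND2 by 4.65 ± 0.27 and 2.12 ± 0.18 (2.53 ± 0.38). For EGR3 and CCND2, GLI2 KO DMSO replicate 3 held only a few counts. AKR1C1 rose in GLI2 KO cells and stood at -0.12 ± 0.13 in WT cells (difference 1.54 ± 0.18). For GLI2 itself and for ABCB1 the differences were -0.21 ± 0.12 (adjusted p = 0.269) and 1.92 ± 1.46 (adjusted p = 0.442) and did not pass.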

How the data were processed

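Polyadenylated RNA from 12 samples (3 per group) was sequenced. Per the submitters' processing notes, Trim Galore 0.6.7, STAR, DESeq2 1.36.0 and hg38 were used, with no roles given. Which counter and annotation were used, and whether strand was used, is not given in these sources. The deposited values used are whole-number counts per gene, not normalized by the authors. The number of columns left unused was 0. A deposited table of the same counts after scaling was not used.

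Counts were fitted with edgeR 4.0.16 (R 4.3.3) on all 12 samples, with TMM factors, filterByExpr by group at a minimum count of 10, a mean per group, 8 residual degrees of freedom, and glmQLFTest for paclitaxel in GLI2 KO cells, in WT cells and for the difference. P-values are two-sided and Benjamini-Hochberg adjusted over all 21974 genes (87.7% of 25049). Standard errors were derived from the F statistic as |log2 fold change| / sqrt(F). With 3 libraries against 3 an exact permutation p cannot go below 0.1. Tested on simulated counts of 21096 genes for the GLI2 KO comparison, the fit recovered 99% of 2-fold and 93% of 1.5-fold changes, with 6.8% of calls false. The simulation changed 100 genes at each size, all of at least 1 CPM and as many up as down. In the data 65.2% of genes were called and many rises lay below 1 CPM, so these shares need not carry over. GENCODE 29 matched 93.9% of tested genes, and shared exon bases come from it. Promoters come from RefSeq (GRCh38.p14).

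Members, lists and motifs were chosen with earlier results of these data known. Named genes have an adjusted p below 0.05, at least 5 CPM in either GLI2 KO group and replicates that do not overlap: the 15 largest rises and falls, the 8 largest gains and losses in CPM, up to 4 passing members per list with at least 1 CPM, 6 genes with at most 3 DMSO counts, the 8 largest differences from WT in each direction with at least 5 CPM in any group, and 13 fixed genes. Alternatives were other scalings, filters, DESeq2 1.42.0, the 6 GLI2 KO samples alone and leaving out libraries. Some items that this rule names are not reported here.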

Additional observations from a re-analysis of the deposited data

Results flagged for a closer look

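The 16 genes with the largest differences between the responses of GLI2 KO and WT cells, among those with at least 5 CPM in any group, were set apart by the interaction test of edgeR. All values are differences of log2 fold changes, GLI2 KO minus WT, and the GLI2 KO libraries of the treatments did not overlap for any of these genes but CAPN8. Higher in GLI2 KO cells were CHILL1 (1.69 ± 0.21), ALOXE3 (1.62 ± 0.24), DHRS2 (1.55 ± 0.23), RELB (1.36 ± 0.19), SPX (1.27 ± 0.30), the neural adhesion gene L1CAM (1.26 ± 0.13), CHAC1 (1.20 ± 0.22) and the transporter ABCA10 (1.20 ± 0.19). For DHRS2 the GLI2 KO cells started lower, at 1.66 to 2.31 CPM against 4.52 to 5.17 CPM in WT cells, and ended at 69.6 to 92.7 against 62.9 to 73.2 CPM. L1CAM went from 0.872, 1.02 and 1.17 to 3.04, 2.80 and 3.25 CPM in GLI2 KO cells and from 6.98, 6.52 and 6.48 to 8.55, 8.05 and 8.12 CPM in WT cells.

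Lower in GLI2 KO cells were ARRDC3 (-3.15 ± 0.17), SATB1 (-3.06 ± 0.36), CAPN8 (-2.49 ± 0.69), HAS2 (-1.75 ± 0.11) and the histone genes H2BC5 (-2.07 ± 0.13), H2BC21 (-2.04 ± 0.20), H2BC12 (-1.96 ± 0.17) and H2BC4 (-1.78 ± 0.28). The value of SATB1 rests on few WT DMSO counts. CAPN8 in GLI2 KO cells held 1.95, 2.10 and 5.79 CPM in DMSO and 4.76, 4.97 and 6.27 CPM in paclitaxel, and its rise of 0.69 ± 0.36 did not pass (adjusted p = 0.126). Without GLI2 KO DMSO replicate 3 it was 1.39 (adjusted p = 2.77e-11). Of the 16, HAS2 alone passed in both genotypes with opposite signs. Adjusted p-values of the differences ran from 3.04e-10 for HAS2 to 0.0488 for CAPN8.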

How the results depend on the processing

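No paired analysis was possible because the titles carry no replicate number that groups share; each library number belongs to 1 sample, and nothing says which libraries belong together. With library totals 3831 genes were lower. At least 2-fold falls numbered 110 with upper-quartile factors, 89 with library totals and 76 with a minimum count of 50, which also gave 1490 rises of that size, with fewer genes tested (16198). Against a 1.5-fold change 3211 genes were higher and 488 lower. DESeq2 gave 131 differences at least 2-fold lower in GLI2 KO cells and 7519 higher and 6858 lower genes in all. Leaving out 1 library gave 6709 to 7446 higher and 6754 to 7212 lower genes, 3374 to 3770 and 174 to 227 at 2-fold, and for the difference 1029 to 1602, 1094 to 1841, 83 to 129 and 158 to 219. Sign changes of medians were counted for lists in which falls or rises at least equalled all other members together. By that rule kinesins (0.02), glycolysis (0.01), oxidative phosphorylation (0.002218) and ribosomal proteins (0.02) turned sign with library totals. NRF2 genes (0.03 and 0.09) and lysosome and autophagy (0.02 and 0.08) did so with upper-quartile factors and library totals. Other medians also turned sign with library totals, such as microtubule-binding genes (0.14), aminoacyl-tRNA synthetases (0.11), ribosome biogenesis (0.16), EGFR family (0.16), YAP and TAZ (0.12) and laminins (0.09). Upper-quartile factors and library totals shift all genes by 0.12 and 0.18. Of 590 list medians, 372 stayed within the spread of the paclitaxel libraries, 210 moved beyond it and 8 turned sign by that rule. Of 5139 values for 257 named genes 5114 kept direction and side of the threshold, 15 lost and 10 gained a call, and 0 reversed. The call of S100A4 (0.34 ± 0.11) was lost without GLI2 KO DMSO replicate 1 (0.24) or 2 (0.25) or paclitaxel replicate 3 (0.29), and that of PSMB9 (-0.30 ± 0.08) with upper-quartile factors (-0.18), with library totals (-0.12) and without libraries 11 and 12 (-0.15). The difference for SPX was lost without WT DMSO replicate 1 (1.07, adjusted p = 0.0573), and that for CAPN8 under 11 settings. Genes under about 1 CPM rest on fewer than 100 counts per library.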
